A study of Mus musculus with 2 samples.

Results

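The interleukin-1 (IL-1) family and its inflammasome were followed through 9 genes of the 16383 genes analysed in mouse liver non-parenchymal cells. The 9 genes were taken by name and by no rule on their measured values, though earlier results of these data were known. Each had UMIs (unique molecular identifiers, 1 per captured transcript) in both libraries. They were the cytokines *Il1a*, *Il1b* and *Il18*, the receptor antagonist *Il1rn*, the receptors *Il1r1* and *Il1r2*, the IL-18 binding protein *Il18bp*, the sensor *Nlrp3* and the protease *Casp1*. The control group was a single library from male wild-type C57BL/6 mice on a standard diet, and the NASH group a single library from male mice of the same strain on a methionine- and choline-deficient diet, a diet used to induce non-alcoholic steatohepatitis. Feeding began at 8 weeks of age and went on for 6 weeks, and the cells of 3 mice were pooled in each library. With 1 library per diet there is no replicate and no test, so every interval given is a 95% interval that covers counting error only. The comparison asked which liver endothelial and myeloid cells hold the transcripts of this pathway and how their levels differed between the diets.

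IL-1α and IL-1β bind the same signalling receptor, encoded by *Il1r1*, which drives NF-κB and its inflammatory target genes through MyD88 and the IRAK kinases. The receptor antagonist encoded by *Il1rn* occupies that receptor without signalling, and the decoy receptor encoded by *Il1r2* binds the cytokines without signalling. NLRP3 assembles the inflammasome that activates caspase-1, which cuts pro-IL-1β and pro-IL-18 into their active forms, and IL-18 is held in check by its binding protein. Transcript counts do not show cutting or release. In the liver, Kupffer cells are the resident macrophages of the sinusoids and liver sinusoidal endothelial cells (LSECs) line them, while neutrophils and monocytes enter from the blood.

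Cells with at least 500 UMIs and 200 genes were kept, which left 4209 control cells with 11399278 UMIs and 3710 NASH cells with 9249745 UMIs, at a median of 1683 and 1654 UMIs per cell. The 9 genes were removed from the features used for clustering, and 21 cell labels occurred in both libraries. Classes were named from marker lists. The LSEC-like class held 12 of 15 listed LSEC markers among its 50 leading genes, the Kupffer cell-like class 8 of 11, the monocyte-like class 8 of 10, the neutrophil-like class 8 of 13 and the conventional dendritic cell-like (cDC-like) class 8 of 12. The vascular endothelial cell-like (VEC-like) clusters, called here by *Bmp4* and *Adgrg6*, each among their leading genes, held 5 and 7 of 15 VEC markers. Clusters led by *Acod1*, *Ace* and *Cx3cr1* were left unnamed, and the *Acod1* cluster, which also led with *Csf1*, *Clec4e*, *Ptgs2* and *Cxcl2*, held 3 of 13 neutrophil markers. The libraries differed in make-up. Neutrophil-like cells made up 10.1% of the control library (426 cells) and 1.81% of the NASH library (67 cells), monocyte-like cells 2.09% (88) and 5.77% (214), Kupffer cell-like cells 11.1% (467) and 11.8% (438), LSEC-like cells 25.3% (1065) and 35.8% (1330), *Bmp4* VEC-like cells 3.18% (134) and 10.3% (381), *Adgrg6* VEC-like cells 1.66% (70) and 3.85% (143), and the *Acod1* cluster 0.333% (14) and 1.29% (48).

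By the GENCODE annotation of GRCm38, the ligand genes *Il1a* (chr2:129299610-129309972) and *Il1b* (chr2:129364570-129371139) lie on the minus strand, 54597 bases apart, and *Il1rn* lies elsewhere on the same chromosome, on the plus strand (chr2:24336853-24351494). The receptor genes *Il1r2* (chr1:40074079-40125231) and *Il1r1* (chr1:40225080-40317257) are neighbours 99848 bases apart, both on the plus strand. *Il18* (chr9:50554827-50581840), *Casp1* (chr9:5298517-5307265) and *Nlrp3* (chr11:59541568-59566956) lie on the plus strand, and *Il18bp* (chr7:102014885-102018690) on the minus strand. *Il18bp* shares 80 bases with *Numa1*, and an antisense gene, *Il1bos*, overlaps *Il1b* and held 52 control and 10 NASH UMIs in neutrophil-like cells. No source used here gives the strand setting of the counting, so overlapping genes cannot be told apart. The promoters of the 3 ligands of *Il1r1* are shown because these genes encode ligands of the same receptor and differed in the cells that held them. Each is 300 bases of RefSeq sequence on GRCm38.p6, from 250 bases before the annotated start to 50 bases after it, written 5′ to 3′ along the gene, with the matches named in the next paragraph in capitals:
*Il1a*, chr2:129309923-129310222, minus strand: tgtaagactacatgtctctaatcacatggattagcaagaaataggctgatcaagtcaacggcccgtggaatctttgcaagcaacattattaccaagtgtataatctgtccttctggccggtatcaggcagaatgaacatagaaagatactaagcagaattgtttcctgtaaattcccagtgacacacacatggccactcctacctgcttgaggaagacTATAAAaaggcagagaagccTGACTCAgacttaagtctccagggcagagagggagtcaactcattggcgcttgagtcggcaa
*Il1b*, chr2:129371090-129371389, minus strand: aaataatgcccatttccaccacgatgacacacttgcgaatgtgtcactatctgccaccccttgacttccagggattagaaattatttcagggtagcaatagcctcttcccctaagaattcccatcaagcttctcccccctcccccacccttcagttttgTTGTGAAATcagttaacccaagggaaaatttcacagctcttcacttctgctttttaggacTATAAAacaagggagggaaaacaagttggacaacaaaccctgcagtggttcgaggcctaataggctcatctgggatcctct
*Il1rn*, chr2:24336610-24336909, plus strand, the first of 3 listed starts: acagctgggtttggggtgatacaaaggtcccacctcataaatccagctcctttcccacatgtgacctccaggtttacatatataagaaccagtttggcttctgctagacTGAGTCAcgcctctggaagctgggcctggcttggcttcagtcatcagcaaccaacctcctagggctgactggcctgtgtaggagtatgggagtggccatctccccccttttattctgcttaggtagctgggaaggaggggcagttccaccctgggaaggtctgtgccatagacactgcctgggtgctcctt

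The letters searched on both strands were TATAAA (the TATA box), TGANTCA (AP-1), TTNNGNAAT (C/EBP) and the NF-κB consensus by its name. A TATA box began 32 bases before the start of *Il1a* and 31 bases before that of *Il1b*, and the upstream *Il1rn* promoter held none. The same letters were held by 13.6% of 32851 RefSeq promoters of equal length. An AP-1 match began 12 bases before the *Il1a* start and 141 bases before the *Il1rn* start (7.81% of promoters), and a C/EBP match 91 bases before the *Il1b* start (11.5%). Another listed *Il1rn* start, not shown, had a C/EBP match 64 bases before it and the letters TATAAA after it. The NF-κB consensus (4.51% of promoters) occurred in none of the 3 windows but in 1 promoter each of *Il1r1* and *Nlrp3*, and in that *Il1r1* promoter it overlapped a C/EBP match. None of the matches in capitals overlapped another. A match is a description of letters, not a binding site.

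Levels are given as CPM, the UMIs of a gene per 1000000 UMIs of the class. In the whole libraries, *Il1b* stood at 919 CPM in control and 358 in NASH (log2 NASH over control −1.36, interval −1.42 to −1.31). *Il1r2* was 47.2 and 14.5 CPM (−1.70, −1.99 to −1.43). *Il1rn* went the other way, at 101 and 323 CPM (1.68, 1.58 to 1.78). These 3 were the members that differed by at least 1.5 times, 1 of 9 higher in the NASH library beside 6.65% of the 8857 genes with at least 50 UMIs, and 2 of 9 lower beside 8.85% of those genes. The others differed less. *Il1a* was 68.2 and 95.03 CPM (0.48), *Il1r1* 49.7 and 71.8 (0.53), *Il18* 65.9 and 63.5 (−0.05), *Il18bp* 515 and 422 (−0.29), *Nlrp3* 119 and 88.2 (−0.43) and *Casp1* 155 and 167 (0.11). Whole-library values mix the share of each cell class with the level inside it, and from them alone fewer cells of a class cannot be told apart from less RNA per cell. Neutrophil-like cells numbered 426 in control and 67 in NASH, at a median of 1469.5 and 1247 UMIs per cell.

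When control levels were kept and only the class shares of UMIs were taken from the NASH library, the log2 difference was −0.94 for *Il1b*, −0.87 for *Il1r2*, 0.80 for *Il1r1* and 0.59 for *Il1rn*. With the shares kept and only the levels changed, it was −0.57 for *Il1b*, −0.79 for *Il1r2*, −0.01 for *Il1r1* and 0.63 for *Il1rn*. The *Il1r1* difference thus appeared with the shares alone, and those of *Il1b*, *Il1r2* and *Il1rn* with either. The levels include those of neutrophil-like cells, some of which held a UMI of *Clec4f*, *Cd5l*, *Cd163* or *Marco*. In the neutrophil-like cells without such a UMI, *Il1b* was 13779 CPM in control and 14111 in NASH, and *Il1r2* 698 and 726. Without the neutrophil-like class and the *Acod1* cluster, *Il1b* was higher in the NASH library (0.61), *Il1r2* was −0.46 and *Il1rn* 2.01.

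**Figure D1:**
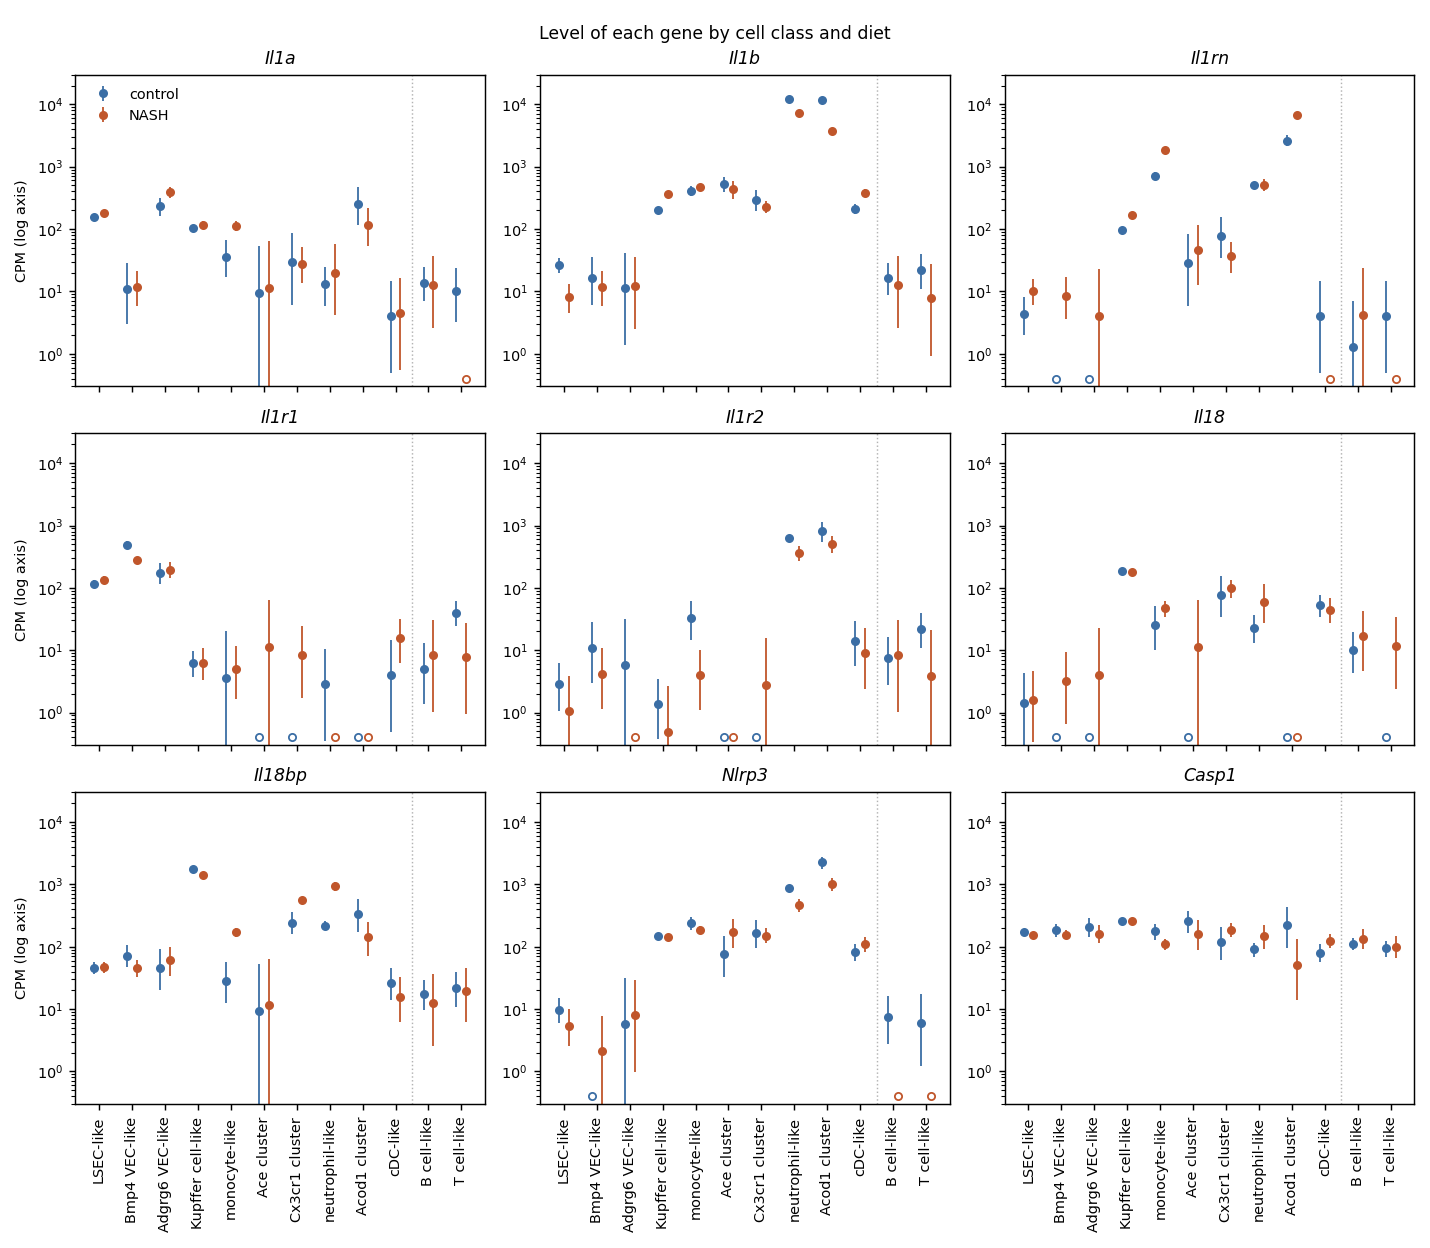
Level of each of the 9 genes (CPM, log axis) in 10 endothelial and myeloid classes and, after the dotted line, in B cell-like and T cell-like cells, with control in blue and NASH in orange. Points are sums over the cells of a class in 1 library, bars are exact Poisson 95% intervals and open circles at the bottom are sums of 0 UMIs. *Il1b*, *Il1r2* and *Nlrp3* were highest in the neutrophil-like class and the *Acod1* cluster, *Il1rn* in the *Acod1* cluster, *Il1r1* in endothelial cells and *Il18* and *Il18bp* in Kupffer cell-like cells.

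*Il1a*, which encodes the form of IL-1 that is active without cutting by caspase-1, was held by endothelial as well as Kupffer cell-like cells. *Adgrg6* VEC-like cells held 230 CPM in control (interval 165 to 314) and 393 in NASH (319 to 479), LSEC-like cells 158 and 184, and *Bmp4* VEC-like cells 11.04 and 11.65. The *Bmp4* VEC-like values lay slightly below those of B cell-like cells (13.9 and 12.6 CPM), which are read here as background. Over both libraries the order was *Adgrg6* VEC-like (326 CPM), LSEC-like (170), the *Acod1* cluster (158, from 18 UMIs), Kupffer cell-like (109) and monocyte-like (96.2). The first stood 1.91-fold above the next over both libraries with no overlap of intervals, but in control alone its interval overlapped those of LSEC-like cells (141 to 176) and of the *Acod1* cluster (250 CPM, 114 to 474, from 9 UMIs). The LSEC-like interval over both libraries overlapped that of the *Acod1* cluster. LSEC-like cells, both VEC-like clusters and a small endothelial cluster led by *Erg* together held 48.8% of the *Il1a* UMIs of the control library and 51.6% of those of the NASH library. Kupffer cell-like cells held 38.6% and 27.6%.

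*Il1a* was higher in NASH by at least 1.5 times in *Adgrg6* VEC-like cells (log2 0.76, 0.22 to 1.34). It was the only one of 3 members measured there (at least 50 UMIs over both libraries) to reach that size upward, beside 9.56% of 1800 genes, and 0 of 3 were lower beside 7.94% of genes. The share of these cells with an *Il1a* UMI was 41.4% in control and 41.3% in NASH at a median of 2302 and 1578 UMIs per cell, and 25.4% and 31.7% once each cell was thinned to 1000 UMIs, whereas in B cell-like cells (medians 1120 and 1142.5 UMIs) it was 1.44% and 1.55%. The level thus differed more than the share of cells. In the same cells *Lyve1*, an LSEC marker, was 248 and 802 CPM, the sum of the 15 LSEC markers 29785 and 34757, and *Adgrg6* itself 922 and 429, and their part in the *Il1a* value was not tested. In LSEC-like cells the diet ratio was 0.22, with an interval reaching 0 (0.00 to 0.44). This class consisted of endothelial cluster 0 (791 control and 507 NASH cells) and the shallower endothelial cluster 1 (274 and 823 cells, median 953 UMIs), in which *Il1a* was 161 and 186 CPM and 136 and 182 CPM. In Kupffer cell-like cells *Il1a* was 103 and 117 CPM (0.19). In monocyte-like cells it was 35.9 and 113 CPM, but 1 NASH cell held 72 of 113 UMIs, and without it the NASH level was 41.4 CPM. With the top cell of each library left out the ratio was 2.91, so the monocyte-like value rests on a few cells.

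*Il1b*, the classical product of activated myeloid cells, was concentrated in neutrophil-like cells. They held 12297 CPM in control and 7273 in NASH, and an *Il1b* UMI was found in 416 of 426 cells (97.7%) and 61 of 67 cells (91.0%), against 2.07% and 1.55% of B cell-like cells. The *Acod1* cluster came next with 11588 and 3720 CPM, an *Il1b* UMI being present in all 14 control cells and in 36 of 48 NASH cells. Over both libraries the order was neutrophil-like (11407 CPM), *Acod1* cluster (6214), a mixed macrophage cluster (1087), *Ace* cluster (486) and monocyte-like (459), and the intervals of the first 3 did not overlap those of the next class, while those of the *Ace* cluster and the monocyte-like class did. In control alone the neutrophil-like (12038 to 12560 CPM) and *Acod1* cluster (10504 to 12754) intervals overlapped, and in NASH they did not. Neutrophil-like cells, which held 6.12% of all control UMIs and 1.62% of all NASH UMIs, held 81.8% of the *Il1b* UMIs in control and 33.0% in NASH. Kupffer cell-like cells held 5.65% and 22.8%.

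**Figure D2:**
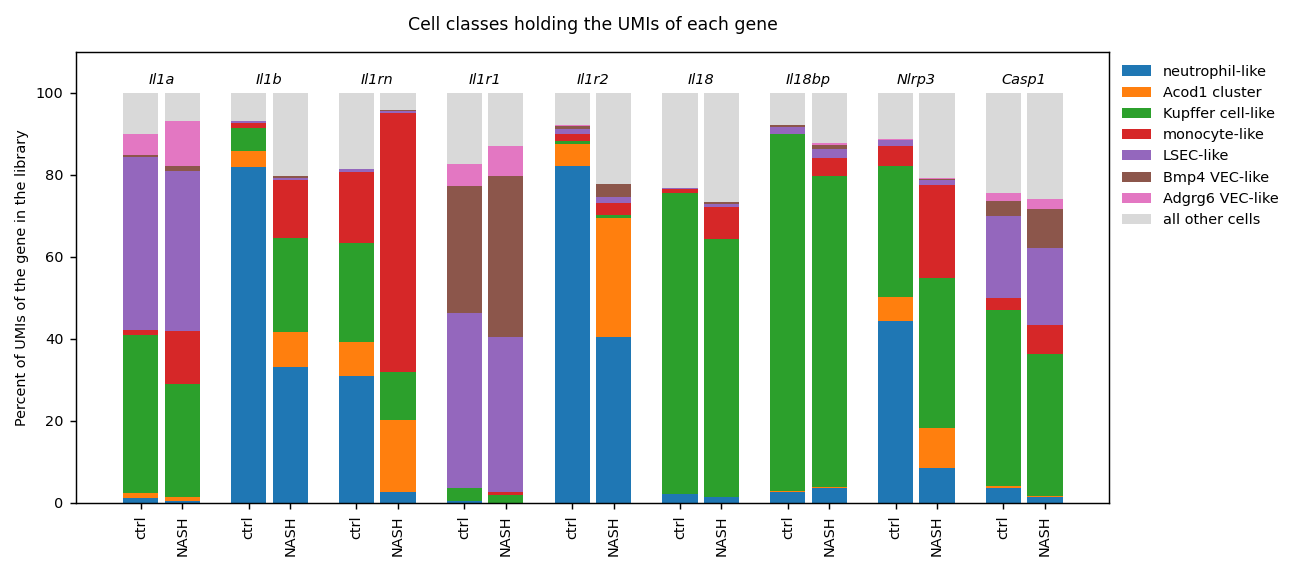
Percent of the UMIs of each of the 9 genes that lay in neutrophil-like cells, the *Acod1* cluster, Kupffer cell-like, monocyte-like, LSEC-like, *Bmp4* VEC-like and *Adgrg6* VEC-like cells and all other cells, as stacked bars for the control and the NASH library. The neutrophil-like part of *Il1b* was 81.8% in control and 33.0% in NASH, and the monocyte-like part of *Il1rn* 17.2% and 62.9%.

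Within neutrophil-like cells the diet ratio of *Il1b* was −0.76 (−0.85 to −0.67). Of the 6 members measured in this class, *Il18bp* and *Casp1* were higher by at least 1.5 times (2 of 6, beside 21.0% of 2358 genes) and *Il1b*, *Il1r2* and *Nlrp3* lower (3 of 6, beside 22.0% of genes). Markers of another cell type moved with these values. The summed level of the 11 Kupffer cell markers, none of which was at 0, was 3197 CPM in control and 10536 in NASH neutrophil-like cells, against 33953 and 33266 in Kupffer cell-like cells, and that of the 13 neutrophil markers 32649 and 26760. A UMI of *Clec4f*, *Cd5l*, *Cd163* or *Marco* occurred in 85 of 426 control cells (19.95%) and 21 of 67 NASH cells (31.3%). In the neutrophil-like cells without such a UMI, *Il1b* was 13779 CPM in control and 14111 in NASH (0.035). The median *Il1b* level per cell over the whole class was 12414 CPM in control and 12848 in NASH. The lower *Il1b* sum of the NASH class was thus not seen in the cells without a Kupffer cell UMI.

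In the *Acod1* cluster, *Il1b* was lower in NASH (−1.64, −1.86 to −1.42), from 14 control cells only. The neutrophil marker *Cxcr2* was 2634 and 901 CPM in this cluster, the sum of the 13 neutrophil markers 16052 and 9756, and *Gpnmb*, a marker of lipid-associated macrophages, 0 and 1686, and the part of this in the cluster's values was not tested. Of 4 members measured there, 1 was higher (36.3% of 422 genes were) and 3 lower (22.7% of genes). In Kupffer cell-like cells *Il1b* was higher, at 203 CPM in control and 363 in NASH (0.84, 0.68 to 1.00), and 2 of 7 measured members were higher by at least 1.5 times beside 5.07% of 6014 genes, while 0 were lower beside 3.71% of genes. The share of cells with an *Il1b* UMI was 46.5% and 47.0% at a median of 6046 and 4536.5 UMIs, and 14.98% and 23.1% at 1000 UMIs per cell. Most control cells of the class lay in myeloid cluster 2 (247 control and 80 NASH cells, median 9039 UMIs) and most NASH cells in myeloid cluster 0 (220 and 358 cells, median 2990.5 UMIs). *Il1b* was higher in both, by 1.14 (0.92 to 1.35) in cluster 2 and 0.29 (0.03 to 0.56) in cluster 0. The summed neutrophil marker level in Kupffer cell-like cells was 190 CPM in control and 150.0 in NASH.

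Other myeloid classes held intermediate *Il1b* levels. In cDC-like cells it was 210 and 377 CPM (0.84, 0.49 to 1.21), and 2 of 3 measured members there were higher beside 6.00% of 3202 genes and 0 lower beside 6.06%. In monocyte-like cells it was 413 and 472 CPM (0.19, −0.10 to 0.50). The control cells of that class also held the neutrophil marker *Cxcr2*, at 215 CPM against 0 in NASH. The part of such RNA in the monocyte-like *Il1b* values was not tested. In the *Ace* cluster, where *Il1b* was the only member measured, it was 528 and 434 CPM (−0.28, −0.92 to 0.34). The LSEC-like and both VEC-like classes stayed near background. LSEC-like cells held 26.6 and 8.07 CPM (55 and 15 UMIs), while B cell-like cells held 16.4 and 12.6 and T cell-like cells 22.0 and 7.70. The LSEC-like *Il1b* ratio of −1.69 was the only one of 5 measured members in that class past 1.5 times, beside 4.89% of 5987 genes lower and 5.86% higher, and it rests on levels of that background size.

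*Il1rn*, the natural brake on IL-1 receptor signalling, was the member with the largest increase, 3.21-fold in the whole library, and most of its NASH UMIs lay in monocyte-like cells. This class held 17.2% of *Il1rn* UMIs in control and 62.9% in NASH. Its level was 707 CPM (612 to 813) in control and 1879 (1795 to 1966) in NASH, a log2 ratio of 1.41 (1.20 to 1.63), and 4 of 7 measured members (*Il1rn*, *Il1a*, *Il18* and *Il18bp*) were higher beside 16.6% of 3642 genes, with 1 (*Casp1*) lower beside 20.3% of genes. The share of cells with an *Il1rn* UMI was 29.5% and 60.7% at a median of 3305.5 and 4289.5 UMIs, and 12.7% and 41.9% at 1000 UMIs per cell, against 0.159% and 0.515% of B cell-like cells unthinned. A single control cell held 116 of 197 *Il1rn* UMIs, and without the 1 cell of each library with the most *Il1rn* UMIs the levels were 301 and 1598 CPM (2.40). Both the level and the share of cells were higher in the NASH library.

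The monocyte-like class also differed in its other genes. The monocyte marker sum was 47624 CPM in control and 25940 in NASH, the sum of the lipid-associated macrophage list 4058 and 16266 (*Gpnmb* 14.4 and 1834), and the Kupffer cell sum 1381 and 2139. Among cells with a UMI of *Ly6c2*, a marker of classical monocytes, and none of *Gpnmb*, *Il1rn* was 267 CPM in 58 control cells and 1792 in 73 NASH cells. The 84 NASH cells with a *Gpnmb* UMI held 2099 CPM, and only 2 control cells had such a UMI. Both kinds of NASH cell thus held more *Il1rn* than the control cells with *Ly6c2*.

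*Il1rn* was also higher in the *Acod1* cluster, at 2606 and 6757 CPM (1.37, 1.06 to 1.71), beside the same shift in *Cxcr2* and *Gpnmb*, and was found in 13 of 14 and 43 of 48 cells. In Kupffer cell-like cells it was 95.3 and 170.3 CPM (0.84, 0.61 to 1.07), higher in myeloid cluster 0 (120 and 182 CPM) and in cluster 2 (89.1 and 150). In neutrophil-like cells it was 509 and 513 CPM (0.02). There, the cells without a Kupffer cell UMI held 553 and 1038 CPM (0.92). Endothelial cells held little, with 4.35 and 10.2 CPM in LSEC-like cells. In a cluster called here by its gene *Epcam*, with *Clu*, *Cp* and *Pigr* foremost, *Il1rn* was 690 and 12.6 CPM, but 136 of the 138 control UMIs lay in 1 cell, and without that cell the control level was 10.7 CPM.

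**Figure D3:**
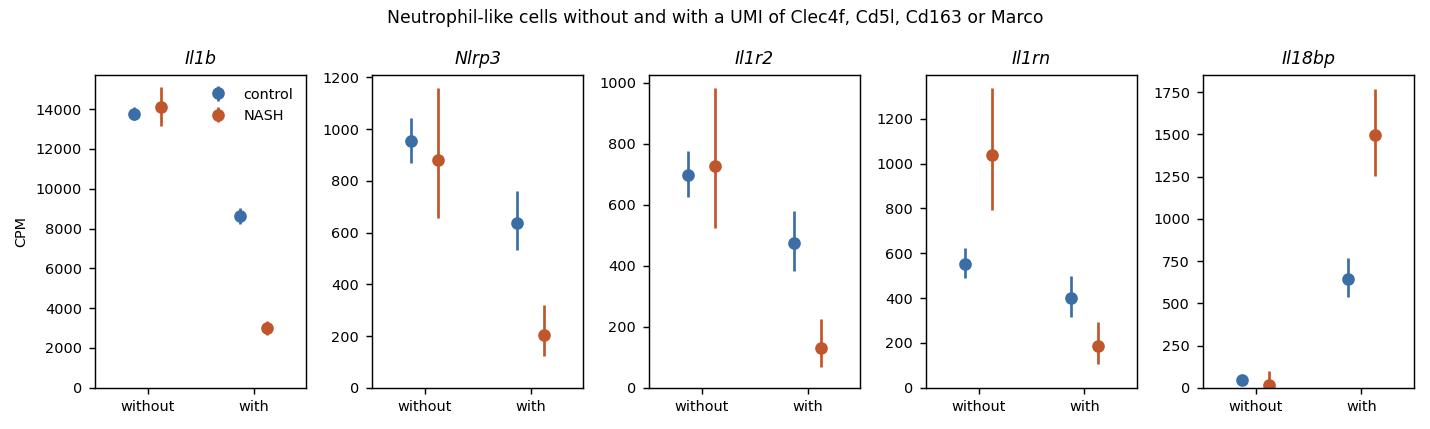
Levels (CPM) of *Il1b*, *Nlrp3*, *Il1r2*, *Il1rn* and *Il18bp* in neutrophil-like cells without and with a UMI of *Clec4f*, *Cd5l*, *Cd163* or *Marco*, control in blue and NASH in orange, with exact Poisson 95% intervals. Without such a UMI, *Il1b* was 13779 CPM in control and 14111 in NASH, and *Il18bp* 44.3 and 17.3.

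The balance of antagonist and agonist transcripts was described as *Il1rn* UMIs per UMI of *Il1a* and *Il1b* together. UMIs are not scaled to gene length, so the ratio is compared between classes and diets only. It was 0.102 in the control library and 0.713 in the NASH library. Monocyte-like cells stood at 1.58 and 3.21, or at 0.736 and 2.75 without the cell of each library with the most *Il1rn* UMIs. The part of neutrophil RNA in these values (*Cxcr2* at 215 CPM in control and 0 in NASH) was not tested. The *Acod1* cluster stood at 0.220 and 1.76, Kupffer cell-like cells at 0.312 (0.271 to 0.357) and 0.354 (0.313 to 0.401), LSEC-like cells at 0.0236 and 0.0532 and neutrophil-like cells at 0.0414 and 0.0703. In Kupffer cell-like cells the intervals of the diets overlapped, and *Il1b* and *Il1rn* were each higher by 0.84 there. In cDC-like cells it was 0.0189 in control, and in NASH 0 UMIs of *Il1rn* beside 171 of the cytokines gave an upper limit of 0.0218.

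**Figure D4:**
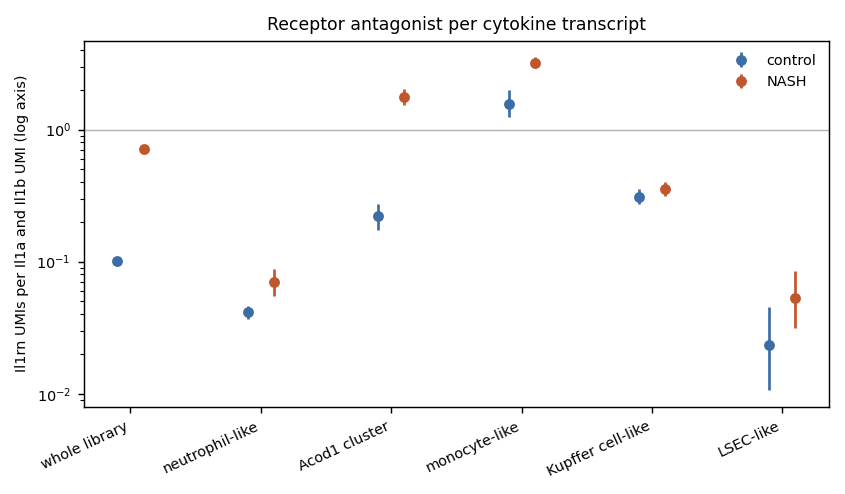
UMIs of *Il1rn* per UMI of *Il1a* and *Il1b* together (log axis) in the whole library and in neutrophil-like, *Acod1* cluster, monocyte-like, Kupffer cell-like and LSEC-like cells, control in blue and NASH in orange, with exact binomial 95% intervals. The grey line marks equal numbers of UMIs, which the *Acod1* cluster crossed (0.220 in control and 1.76 in NASH) and monocyte-like cells exceeded in both libraries, in control only with the 1 cell that held most *Il1rn* UMIs (0.736 without it).

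The signalling receptor and the decoy receptor of IL-1 were held by different cells. *Il1r1* was mostly endothelial, with 80.8% of its UMIs in control and 84.2% in NASH in the LSEC-like, *Bmp4* VEC-like and *Adgrg6* VEC-like classes and the *Erg* cluster. *Bmp4* VEC-like cells, in which *Il1a* was at background, held the most, at 483 CPM (414 to 560) in control and 276 (244 to 312) in NASH. *Adgrg6* VEC-like cells held 173 and 194 CPM (0.16), LSEC-like cells 117 and 134 (0.20) and stellate cell-like cells 306 and 227, from 19 and 13 UMIs. The *Epcam* cluster held 115 and 151 CPM, a level like that of LSEC-like cells, from 23 and 24 UMIs. In the myeloid classes drawn in the plot of levels *Il1r1* lay between 0 and 15.6 CPM, beside 5.05 and 8.42 in B cell-like cells.

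The diet ratio of *Il1r1* in *Bmp4* VEC-like cells was −0.81 (−1.09 to −0.52), and 2 of 3 measured members of that class were lower beside 7.44% of 4245 genes, and 0 higher beside 8.41%. The other was *Il18bp*. The share of cells with an *Il1r1* UMI was 59.0% and 43.8% at a median of 2448.5 and 2137 UMIs, and 38.8% and 23.3% at 1000 UMIs per cell. In the same cells the summed level of the 15 LSEC markers was 19147 CPM in control and 23435 in NASH, with *Lyve1* at 27.6 and 354 CPM, and the part of this in the *Il1r1* value was not tested. It held 30.9% of all *Il1r1* UMIs in control and 39.3% in NASH.

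*Il1r2*, which encodes the decoy, was found in neutrophil-like cells (82.2% of its UMIs in control and 40.3% in NASH) and the *Acod1* cluster (5.39% and 29.1%). Its level was 634 and 360 CPM in neutrophil-like cells (−0.81, −1.25 to −0.41) and 804 and 502 CPM in the *Acod1* cluster (−0.69, −1.41 to 0.07). In neutrophil-like cells without a Kupffer cell UMI it was 698 and 726 CPM (0.072). Neutrophil-like cells held 442 *Il1r2* UMIs and 2 *Il1r1* UMIs in control, and 54 and 0 in NASH. In the whole library the ratio of *Il1r2* to *Il1r1* UMIs was 0.949 in control and 0.202 in NASH.

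**Figure D5:**
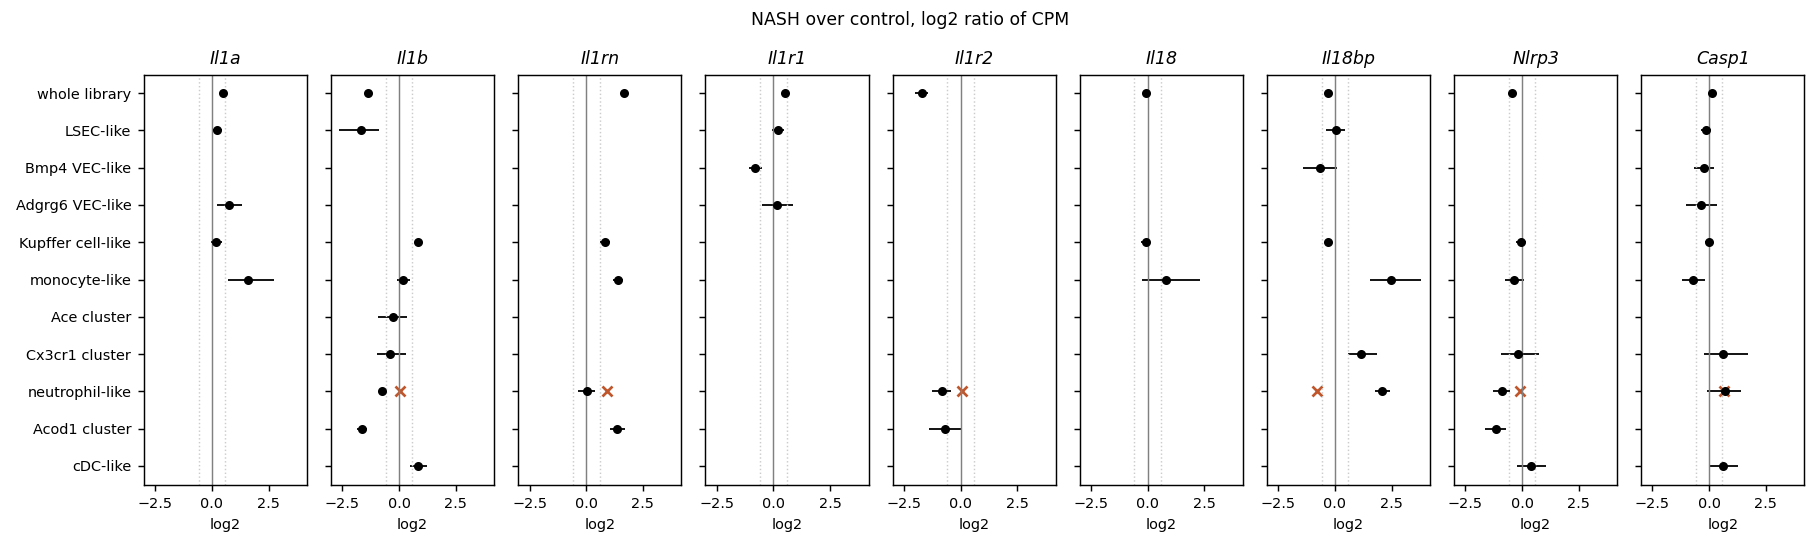
Log2 ratio of NASH to control CPM of each of the 9 genes in the whole library and in 10 classes, drawn where at least 50 UMIs were counted, with 95% intervals. Dotted lines mark 1.5 times either way, and the orange crosses give the neutrophil-like class without cells that hold a UMI of *Clec4f*, *Cd5l*, *Cd163* or *Marco*. *Il1rn* was 1.41 in monocyte-like and 0.84 in Kupffer cell-like cells, and *Il1b* −0.76 in all neutrophil-like cells and 0.035 without those cells.

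*Il18* and its antagonist gene *Il18bp* were both led by Kupffer cell-like cells. *Il18* was 189 CPM in control and 177 in NASH there (−0.09, −0.28 to 0.10), with 73.4% and 62.7% of its UMIs, and 54.2% and 47.9% of cells had a UMI, against 1.12% and 2.06% of B cell-like cells. At 1000 UMIs per cell those Kupffer cell-like shares were 16.4% and 19.7%. LSEC-like cells held 1.45 and 1.61 CPM, cDC-like cells 52.4 and 44.6 and monocyte-like cells 25.1 and 47.0 (0.82, −0.25 to 2.30).

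*Il18bp* was 1753 CPM (1705 to 1802) in control and 1426 (1375 to 1479) in NASH Kupffer cell-like cells, a log2 ratio of −0.30 (−0.36 to −0.23), below 1.5 times but beyond counting error. It was detected in 93.4% and 87.7% of these cells, or 77.4% and 69.7% at 1000 UMIs per cell, and was lower in myeloid cluster 0 (1600 and 1369 CPM) and in cluster 2 (1792 and 1530). The ratio of *Il18bp* to *Il18* UMIs in the class was 9.28 in control and 8.04 in NASH. In the *Cx3cr1* cluster *Il18bp* was 244 and 554 CPM (1.16, 0.58 to 1.85), and 2 of the 4 members measured there were higher beside 12.8% of 1705 genes, with 0 lower beside 10.2%. *Gpnmb* was 29.3 and 1088 CPM in that cluster. In monocyte-like cells it was 28.7 and 170.1 CPM (2.48), beside 57.4 and 287 CPM of *Clec4f*, a Kupffer cell marker.

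The neutrophil-like value of *Il18bp* was 217 CPM in control and 926 in NASH (2.10), but without the cells holding a Kupffer cell UMI it was 44.3 and 17.3 CPM, from 22 and 1 UMIs. All but 1 of the 139 NASH UMIs thus lay in the 21 cells with a Kupffer cell UMI. LSEC-like cells held 45.9 and 46.8 CPM of *Il18bp* (0.03), *Bmp4* VEC-like cells 71.8 and 45.5 (−0.67, −1.39 to 0.11) and B cell-like cells 17.7 and 12.6.

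*Nlrp3*, the sensor, was highest in the classes that led for *Il1b*. It was 864 and 466 CPM in neutrophil-like cells (−0.88, −1.27 to −0.53) and 2246 and 1004 in the *Acod1* cluster (−1.16, −1.63 to −0.69), where 14 of 14 control cells and 20 of 48 NASH cells had a UMI. In neutrophil-like cells without a Kupffer cell UMI it was 954 and 882 CPM (−0.10). Kupffer cell-like cells held 149 and 144 CPM (−0.04) and monocyte-like cells 237 and 186 (−0.35, −0.76 to 0.08). Neither differed by more than the counting interval. The LSEC-like and both VEC-like classes held between 0 and 9.66 CPM, beside 7.57 and 0 in B cell-like cells. The neutrophil-like part of all *Nlrp3* UMIs was 44.3% in control and 8.58% in NASH.

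*Casp1* was spread over nearly all classes. Kupffer cell-like cells held 261 and 258 CPM (−0.02), LSEC-like cells 171 and 155 (−0.13), *Bmp4* VEC-like cells 182 and 156 (−0.23) and *Adgrg6* VEC-like cells 207 and 162 (−0.36), while B cell-like cells held 112 and 135 and T cell-like cells 94.2 and 100.1. The LSEC-like and both VEC-like classes therefore held *Casp1* with *Nlrp3* and *Il1b* near background. A mixed endothelial cluster of 23 and 21 cells held 351 and 731 CPM of *Il1b* and 56.2 and 153.8 of *Nlrp3*. Its *Il1b* UMIs lay in only 6 control and 3 NASH cells, and its *Nlrp3* UMIs in 4 and 2. That cluster also held 569 and 115 CPM of *Il18bp*, the gene led by Kupffer cell-like cells. For *Casp1*, past 1.5 times among the endothelial and myeloid classes were monocyte-like cells, at 176 and 109 CPM (−0.70, −1.19 to −0.17), cDC-like cells, at 80.6 and 125 (0.63, 0.02 to 1.25), and the *Cx3cr1* cluster (0.63) and neutrophil-like cells (0.72), whose intervals included 0. Across 36 groups of a class in 1 library the pattern closest to *Nlrp3* among 7121 genes was that of *Mefv*, which encodes the sensor pyrin (r = 0.95), and the pattern closest to *Il1b* was *1600010M07Rik* (0.94), followed by *Nlrp3* (0.93) and *Csf3r* (0.92). Closest to *Il1r2* were *Asprv1* and *Il1f9* (both 0.95), to *Il1rn* *Cxcl2* (0.90) and *Cd14* (0.89), to *Il1r1* *Kank1* (0.91), to *Il18bp* *Cd5l* (0.93), to *Il18* *Igf1* (0.85), to *Il1a* *Msr1* (0.83) and to *Casp1* *Hip1* (0.79). These r describe groups that share 2 libraries, and *Il1a* and *Il1b* had an r of 0.10.

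Within single Kupffer cell-like cells thinned to 1000 UMIs, an *Nlrp3* UMI occurred in 19.6% of the 158 cells with an *Il1b* UMI and in 10.6% of the 678 cells without one. The order was the same in control (20% and 12.2%) and in NASH (19.4% and 8.74%), with overlapping intervals in each library. An *Il1rn* UMI occurred in 9.49% and 9.59% of the same cells. Its order differed between the libraries, at 4.62% and 8.67% in control and 12.9% and 10.7% in NASH. In monocyte-like cells of both libraries an *Nlrp3* UMI occurred in 19.4% of cells with an *Il1b* UMI and 16.8% of those without. In cDC-like cells these shares were 6.67% and 8.67%. Doublets were kept, and their part in these shares was not tested.

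The rest of the pathway was described from 7 lists of 90 genes, 86 of them in the tables. Of 15 receptor adaptors and kinases, such as *Myd88* and the IRAK kinases, 0 differed by 1.5 times in the whole library (median log2 0.07, all genes 0.02) or in LSEC-like cells, and in Kupffer cell-like cells 0 of 14 did. In monocyte-like cells 1 of 12 was higher and 5 lower, led by the kinase *Ikbkb* at 312 and 117 CPM, beside 16.6% and 20.3% of all genes there. Of the other sensors and the adaptor, 0 of 11 were higher and 2 lower in the whole library, where *Pycard*, the adaptor that joins NLRP3 to caspase-1, was 197 and 89.0 CPM and *Nlrp12* 19.6 and 2.81. In monocyte-like cells *Pycard* was 273 and 170.1 CPM. Of 18 regulators of NLRP3, 1 was higher and 2 lower, and *Cd36*, a scavenger receptor for oxidised lipids, was 654 and 1199.8 CPM, with 129 and 1462 in monocyte-like cells.

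Genes known to be induced by IL-1 or NF-κB were counted by class. In Kupffer cell-like cells 5 of 15 were higher and 0 lower, beside 5.07% and 3.71% of all genes (median 0.29, all genes 0.00), among them *Cebpd* at 96.0 and 180.4 CPM, *Nfkbiz* at 49.4 and 89.7 and *Bcl3* at 40.5 and 70.9. In monocyte-like cells 9 of 20 were higher and 4 lower, beside 16.6% and 20.3% of all genes (median 0.41, all genes −0.08), with the chemokine genes *Cxcl2* at 136 and 1483 CPM, *Ccl2* at 28.7 and 223 and *Cxcl1* at 0 and 64.0, the last from 64 NASH UMIs. In LSEC-like cells 4 of 14 were higher and 2 lower, beside 5.86% and 4.89% of all genes (median 0.18), with *Ccl2* at 3.87 and 26.9, *Ccl4* at 4.83 and 22.6 and *Csf1* at 267 and 132. Both chemokine genes lay at the size of *Il1b* in these cells (26.6 and 8.07 CPM), which was read above as near background. The macrophage gene *Gpnmb* was 0.483 and 13.4 CPM in the same cells, and the part of such RNA in the chemokine values was not tested. In *Bmp4* VEC-like cells 2 of 7 were higher, beside 8.41% of all genes, with *Cebpd* at 362 and 602 CPM. In neutrophil-like cells 0 of 17 were higher and 7 lower, beside 21.0% and 22.0% of all genes (median −0.43, all genes −0.10), with *Cxcl2* at 5544 and 2058 and *Nfkbia*, the inhibitor of NF-κB, at 2440 and 773, in the same cells whose Kupffer cell marker sum was higher in NASH.

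*Il33*, an alarmin of endothelial cells, was 350 and 187 CPM in *Bmp4* VEC-like cells (−0.90, −1.24 to −0.56), the class in which *Il1r1* was also lower, and 22.7 and 28.0 in LSEC-like cells. In *Adgrg6* VEC-like cells *Il33* was lower too, at 202 and 117 CPM (−0.78, −1.54 to −0.03), while *Il1r1* there was 173 and 194 CPM. *Il1f9*, which encodes IL-36γ, was 1571 and 866 CPM in neutrophil-like cells and 2301 and 3436 in the *Acod1* cluster (0.57, 0.22 to 0.95). *Il18rap*, the accessory chain of the IL-18 receptor, was 455 and 213 CPM in neutrophil-like cells, while NK cell-like cells held 558 and 424.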

How the data were processed

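The study captured liver non-parenchymal cells of both diets on the BD Rhapsody platform (1 label names 10x Genomics instead). The authors deposited raw UMI counts per cell and gene, made with the BD whole transcriptome pipeline on GRCm38. The NASH table has no gene header, so its columns were named in the control order. Around each of the 9 genes, the log2 summed counts of 41 neighbouring columns correlated at 0.958 to 0.978 between libraries without a shift and at no more than 0.411 with one. A date stood where a gene symbol belonged in 12 columns.

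Cells under 500 UMIs (124 control, 177 NASH) or 200 genes (7 and 7) were dropped and doublets were kept. The libraries were merged and clustered with Seurat 5.3.0 in R 4.3.3, on counts scaled to 10000 UMIs and logged, from 2000 variable genes and 50 principal components at Louvain resolution 0.6, with endothelial and myeloid cells clustered again, which gave 20 clusters in the first and 17 in the second round. Of the 9 genes, 7 had been among the variable genes and were removed. UMIs were summed by class and library (numpy 2.4.6, scipy 1.17.1, pandas 2.3.3, Python 3.11.15). Ratios had 0.5 UMI added to each sum. Levels carry exact Poisson intervals, and shares and ratios exact binomial (Clopper-Pearson) intervals. Thinning to 1000 UMIs kept 3527 control and 2963 NASH cells. Named genes were the 9 members, up to 3 genes with the largest ratio and 2 with the highest level of each list and class, up to 3 genes most like a member, and class markers. The scripts were tested on simulated counts. The members and lists were chosen with earlier results of these data known, and the linear algebra kernel of the clustering was set after clusters had been seen.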

Additional observations from a re-analysis of the deposited data

Results flagged for a closer look

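*Il1b* had opposite diet differences in 2 classes, with a log2 NASH over control of −1.69 in LSEC-like cells and 0.84 in cDC-like cells. The LSEC-like value comes from 55 and 15 UMIs at levels near those of B cell-like and T cell-like cells. *Il1rn* was −5.46 in the *Epcam* cluster, where 1 control cell held 136 of 138 UMIs, and 1.41 in monocyte-like cells. *Casp1* was −0.70 in monocyte-like cells and 0.63 in cDC-like cells, from 49 and 109 UMIs and from 40 and 56 UMIs. These differences between classes rest on 1 library per diet and were not tested.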

How the results depend on the processing

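Of 453 recomputed values of 52 diet ratios (9 whole library, 43 within a class), 399 stayed within counting error, 45 moved beyond it and 9, of ratios past 1.5 times, changed sign. A minimum of 1000 UMIs per cell, resolution 1.0, all cells and 1 UMI added moved none. The VEC-like classes did change in membership. At resolution 1.0 the *Bmp4* VEC-like class held 416 cells in place of 515, and the *Adgrg6* VEC-like class 116 in place of 213. With kernel Haswell, 306 and 150 of their cells stayed in the same class. The settings of a kernel, of cells with a Kupffer cell UMI, of left-out classes, of the tenth of cells with the most UMIs and of the top cell were chosen after seeing the data. No paired analysis was possible because each diet has 1 library. Cause was not tested for any change below. All values are log2 NASH over control unless stated.

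With the mean of CPM per cell, whole-library *Il1a* was 0.74, *Il1b* −1.90, *Il1rn* 1.24, *Il18* 0.24, *Il18bp* −0.090, *Nlrp3* −1.08 and *Casp1* 0.22. Kupffer cell-like *Il1b* was then 0.42, *Il18* 0.16 and *Il18bp* −0.37, monocyte-like *Il1rn* 1.83 and *Nlrp3* −0.85, neutrophil-like *Il1b* −0.044, *Il1rn* 0.75, *Il1r2* −0.049, *Il18bp* 1.41 and *Nlrp3* −0.26, and *Acod1* cluster *Il1b* −2.08, *Il1rn* 0.88 and *Nlrp3* −1.73. Without the neutrophil-like class and the *Acod1* cluster, whole-library *Il1b* was 0.61, *Il1rn* 2.01, *Il1r2* −0.46, *Il18bp* −0.36 and *Nlrp3* 0.22. Without neutrophil-like cells that hold a UMI of *Clec4f*, *Cd5l*, *Cd163* or *Marco*, *Il1b* in that class was 0.035, *Il1rn* 0.92, *Il1r2* 0.072, *Il18bp* −0.80 and *Nlrp3* −0.10. Without the tenth of cells with the most UMIs, neutrophil-like *Il1b* was 0.025, *Il1rn* 0.69, *Il1r2* 0.044, *Il18bp* −1.17 and *Nlrp3* −0.16, *Acod1* cluster *Il1b* −2.21, *Il1rn* 0.79, *Il1r2* −1.53 and *Nlrp3* −1.79, Kupffer cell-like *Il1b* 0.62 and monocyte-like *Il1rn* 2.26. Without the cell of each library with the most UMIs of the gene, monocyte-like *Il1a* was 2.91 and *Il1rn* 2.40, and the UMIs of *Il1rn* per cytokine UMI were 0.736 in control and 2.75 in NASH. With kernel Haswell in place of Nehalem, LSEC-like *Il1a* was −0.013, neutrophil-like *Il1b* −0.66, and *Acod1* cluster *Il1b* −2.04 and *Il1rn* 0.90. Neutrophil-like *Il1b* was −0.66 on a scale without the genes of highest count and −0.52 with the members kept among the clustering features. Leaving out doublet-like cells removed nearly every cell of most classes, and where at least 50 UMIs remained, neutrophil-like *Il1b* was 0.44, *Il1rn* 0.93, *Il1r2* 0.35 and *Nlrp3* −0.15, and *Acod1* cluster *Il1b* −3.76. With a minimum of 20 UMIs the pathway genes past 1.5 times numbered 13 in *Bmp4* VEC-like, 8 in *Adgrg6* VEC-like, 13 in Kupffer cell-like and 9 in cDC-like cells, and 7, 23 and 20 in the *Ace*, *Cx3cr1* and *Acod1* clusters.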

Other observations

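*Casp1* was also measured in lymphoid cells. In NK cell-like cells it was 143 CPM in control and 296 in NASH (log2 1.04, 0.31 to 1.80, from 29 and 37 UMIs), while in T cell-like cells it was 94.2 and 100.1 CPM and in B cell-like cells 112 and 135. The IL-18 receptor chain gene *Il18r1* was 359 and 362 CPM in T cell-like cells and 351 and 304 CPM in NK cell-like cells, with 194.5 (155 to 241) and 444 (369 to 529) in a *Cxcr6* cluster of T and NK cells, the lymphocytes that IL-18 is known to act on.

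Among smaller groups, the mixed macrophage cluster held 91.0 CPM of *Il18* in control and 169 in NASH (0.88, 0.13 to 1.71), and 975 and 653 CPM of *Il18bp* (−0.58, −0.87 to −0.29). Plasma cell-like cells held 52 *Il18* UMIs in 110 control cells (56.3 CPM). The 6 NASH cells of that class held 0, with an interval up to 76.5 CPM, so a difference cannot be told. Cells of a cluster with *Ccl22* and *Ccr7* among its leading genes held 117 and 353 CPM of *Il1rn*, from 6 and 18 cells.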
